A study of Mus musculus with 12 samples.

Results

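The combined treatment with zinc and dexamethasone (Dex) was compared with untreated control in the ileum of mice, across all genes. The comparison was defined by the treatments alone and holds 6 of the 12 libraries of the experiment, 3 from ZnSO4 + Dex mice and 3 from water + PBS mice. ZnSO4 + Dex mice drank 25 mM ZnSO4 for 7 days and were then injected i.p. with 200 µg of Dex (Rapidexon), whereas water + PBS mice drank normal water for the same 7 days and were injected with PBS. The other 6 libraries come from water + Dex mice and ZnSO4 + PBS mice, 3 of each, and were used to set the combined treatment against each treatment on its own. All mice were female C57BL/6J animals of 8 to 14 weeks, all were injected, and ileum was taken 2 h after the injection, so only the early response to Dex was measured. Each library is ileum tissue of 1 mouse, a mixture of epithelium, immune cells, muscle and nerve, in which fewer cells of a type and less RNA per cell cannot be told apart.

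Zinc that enters cells activates the transcription factor MTF1, which binds metal response elements (MRE) and induces metallothioneins, small zinc-binding proteins, and zinc exporters. Dex binds the glucocorticoid receptor (GR), which then enters the nucleus, induces genes through glucocorticoid response elements (GRE) and restrains inflammatory transcription factors. In the ileum, epithelial cells in contact with gut microbes express interferon-stimulated genes, which are driven by IRF and STAT factors through the interferon-stimulated response element (ISRE) and the gamma-activated site (GAS), and whose products serve antiviral defence, antigen presentation and cell death.

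The 6 libraries held 10870740 to 11798057 counted reads each. Normalised counts are counts scaled to a common library size. LFC is the log2 fold change, given ± its SE, and p-values are from edgeR's quasi-likelihood F test in 1 model of the 12 libraries, with Benjamini-Hochberg adjustment over the 15938 genes left after a filter on low counts. A gene was called higher or lower when its adjusted p was under 0.05 and its LFC exceeded 0.8 in either direction, which are the study's cut-offs. With 3 mice against 3, an exact permutation test of a single gene cannot give a p below 0.1. Some libraries stood apart from their group in marker sums. Paneth cell marker sums were 124511 in ZnSO4 + Dex replicate 3 but 262768 and 295654 in the other ZnSO4 + Dex mice. B cell marker sums were 6061 in ZnSO4 + PBS replicate 2 but 1191 and 176 in the other ZnSO4 + PBS mice. The summed normalised counts of 10 B cell markers were 8124 in water + PBS replicate 2 but 407 and 2299 in the other water + PBS mice, and those of 8 enterocyte markers were 106441 in ZnSO4 + Dex replicate 2 but 218721 and 268921 in the other ZnSO4 + Dex mice.

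In ZnSO4 + Dex mice, 813 genes were called higher (5.1% of the genes tested) and 727 were called lower (4.56%) than in water + PBS mice. The median LFC was 1.21 among the genes called higher and -1.27 among those called lower, and an LFC above 3 in size was reached by 66 and 43 of them. In 798 of the 813 genes called higher and 714 of the 727 called lower, no ZnSO4 + Dex mouse overlapped a water + PBS mouse. Over all genes tested, such a separation held for 18.0% upwards and for 18.9% downwards. The calls rest on the same values, so the separation of called genes follows largely from the calls. The genes called higher took 2.39% to 2.54% of all reads in water + PBS mice and 6.28% to 7.32% in ZnSO4 + Dex mice, and the genes called lower took 6.28% to 8.58% and 2.17% to 2.90%. The counts were 720 and 558 without water + PBS replicate 2, and 780 and 601 without ZnSO4 + Dex replicate 2. They were 712 and 570 without ZnSO4 + Dex replicate 1.

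**Figure D1:**
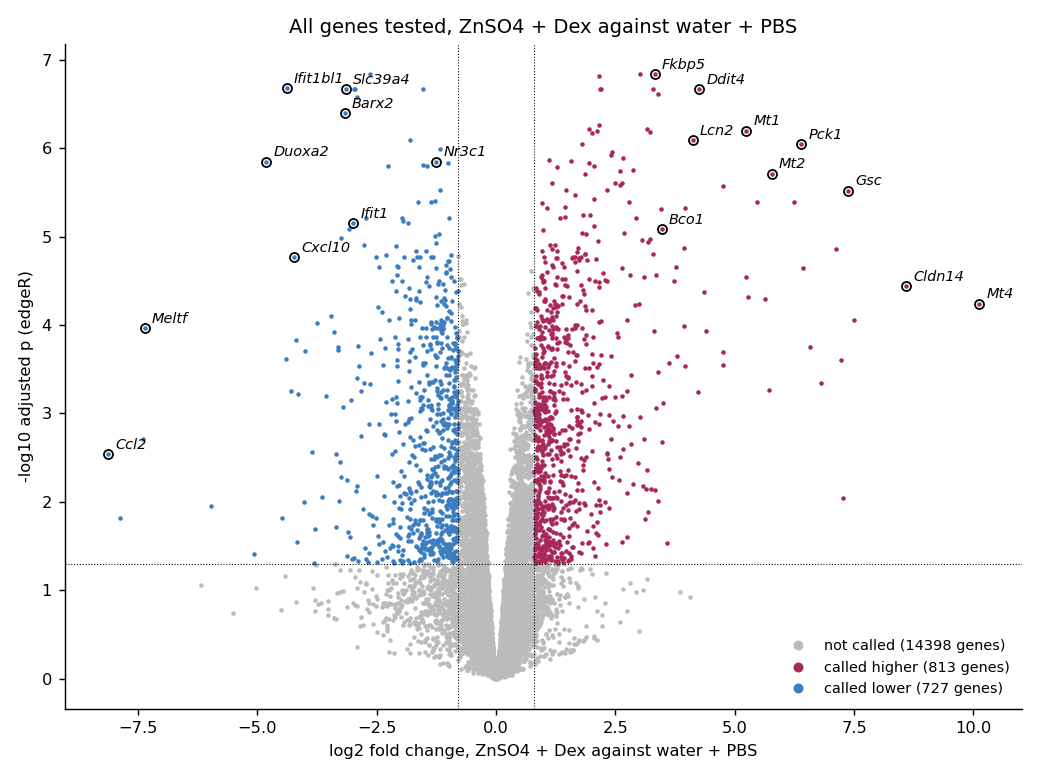
Each point is 1 of the 15938 genes tested, with its log2 fold change in ZnSO4 + Dex against water + PBS mice on the x axis and the -log10 of its adjusted p on the y axis; dotted lines mark the cut-offs. The 813 genes called higher lie in the upper right and the 727 called lower in the upper left, with Mt4 (LFC 10.11) and Ccl2 (LFC -8.13) farthest out among the labelled genes.

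Metallothioneins and a zinc exporter rose and a zinc importer fell. Gene positions are given on GRCm38. Mt1 (ENSMUSG00000031765, chromosome 8, 94179082 to 94180327, + strand), which encodes a metallothionein, had 849, 699 and 489 normalised counts in the 3 water + PBS mice and 25768, 27883 and 23447 in the 3 ZnSO4 + Dex mice (LFC 5.24 ± 0.29, adjusted p = 6.32e-07). Every ZnSO4 + Dex mouse was far above every water + PBS mouse, and the level also exceeded the 21953, 11949 and 22504 of ZnSO4 + PBS mice, although this last difference did not pass the test (LFC 0.45 ± 0.24, adjusted p = 0.266). Mt2 (ENSMUSG00000031762, chromosome 8, 94172664 to 94173568, + strand), its neighbour, had 159, 97.1 and 55 normalised counts in water + PBS mice and 5574, 6585 and 4868 in ZnSO4 + Dex mice (LFC 5.77 ± 0.38, adjusted p = 1.95e-06). Exons of Gm45774 on the opposite strand overlap 73.5% of the exonic bases of Mt2, and Gm45774 itself rose (LFC 5.46), so the reads of the overlap cannot be told apart where the counting ignored strand. Mt4, a metallothionein best known from squamous epithelia, had 1 read in the 3 water + PBS libraries together and 1491 in the ZnSO4 + Dex libraries, a ratio of 1559 after scaling (95% counting interval 279 to 61635).

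The promoters of Mt1 and Mt2 hold several copies of the MRE core, TGCACNC or TGCGCNC, searched on both strands from 250 bases before to 50 after each start in RefSeq (GRCm38.p6). They are shown because Mt1 and Mt2 were high in both zinc groups, with the matches to this core in capitals. The RefSeq start of Mt1 lies upstream of the starts of shorter annotated transcripts, and 2 of its 3 matches follow that start.
Mt1, chr8:94178839-94179081, + strand: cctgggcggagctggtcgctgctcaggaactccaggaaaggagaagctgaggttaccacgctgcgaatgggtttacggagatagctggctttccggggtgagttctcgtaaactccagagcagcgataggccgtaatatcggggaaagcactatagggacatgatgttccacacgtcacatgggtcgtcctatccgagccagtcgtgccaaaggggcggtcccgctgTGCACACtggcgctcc
Mt1, chr8:94179089-94179118, + strand: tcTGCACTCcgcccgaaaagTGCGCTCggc
Mt2, chr8:94172368-94172617, + strand: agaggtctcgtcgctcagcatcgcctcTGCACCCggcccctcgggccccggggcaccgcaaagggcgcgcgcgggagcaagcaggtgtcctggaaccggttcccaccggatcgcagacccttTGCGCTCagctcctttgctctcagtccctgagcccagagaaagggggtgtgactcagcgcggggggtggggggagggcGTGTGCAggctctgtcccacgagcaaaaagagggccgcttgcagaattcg
All 3 metallothioneins tested held the core. It is a common sequence, present in 39.3% of the promoters of the 11438 tested genes with a matched start, in 41.02% of the 590 called higher and in 32.75% of the 516 called lower.

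Slc30a2, which encodes the exporter ZnT2 that loads zinc into secretory granules of Paneth cells, had 786, 541 and 531 normalised counts in water + PBS mice and 2746, 1920.4 and 2455 in ZnSO4 + Dex mice (LFC 1.94 ± 0.18, adjusted p = 3.02e-05). It was the single gene called higher among 8 tested zinc exporters (2 without ZnSO4 + Dex replicate 2), with none called lower. Slc39a4 (ENSMUSG00000063354, chromosome 15, 76612383 to 76617384, - strand), which encodes the importer ZIP4 of the apical membrane, went the other way, from 2443, 2566 and 2695 to 286, 229 and 355 (LFC -3.15 ± 0.15, adjusted p = 2.15e-07). No other importer among 12 was called in either direction. Over all genes tested, 5.1% were called higher and 4.56% lower. For Slc30a2 and Slc39a4 the ZnSO4 + Dex mice lay apart from water + PBS and from water + Dex mice, whereas they overlapped with ZnSO4 + PBS mice, which had 307, 386 and 306 for Slc39a4.

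Genes that glucocorticoids induce rose in number. Of 20 tested glucocorticoid-induced genes, 13 were called higher and none lower, with a median LFC of 1.25 against -0.01 over all genes tested. The 13 are 65% of the list, against 5.1% of all genes tested. The same list had a median LFC of 1.15 in water + Dex and -0.03 in ZnSO4 + PBS mice, each against the same water + PBS mice. Fkbp5 (ENSMUSG00000024222, chromosome 17, 28399094 to 28517527, - strand), which encodes a co-chaperone that lowers the affinity of GR, had 1128, 967 and 1219.9 normalised counts in water + PBS mice and 12189, 10242 and 10789.7 in ZnSO4 + Dex mice (LFC 3.32 ± 0.13, adjusted p = 1.46e-07). Water + Dex mice, at 10737, 10407 and 12376, overlapped with them. Tsc22d3, encoding the anti-inflammatory protein GILZ, rose from 621, 901 and 592 to 6896, 5528 and 6579 (LFC 3.17 ± 0.17, adjusted p = 6.08e-07), and Ddit4, encoding the mTOR inhibitor REDD1, rose from 262, 452 and 268 to 6873, 5717 and 6175 (LFC 4.26 ± 0.20, adjusted p = 2.15e-07). In these genes the groups were separated by wide gaps. Errfi1 (LFC 3.39), an inhibitor of EGF receptor signalling, Klf15 (3.09) and Zbtb16 (3.00), both transcription factors, and the clock gene Per1 (2.16) were also called. Pdk4, Lpin1, Klf9, Irs2 and Bcl6 completed the list with LFCs of 1.09 to 2.57.

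Sgk1, a kinase that stimulates sodium uptake, rose from 2729, 3337 and 3240.5 to 22836, 14609 and 21688 normalised counts (LFC 2.67 ± 0.16, adjusted p = 1.28e-06). Its promoter at 1 of 6 annotated starts holds a palindromic GRE, GNACANNNTGTNC, 188 bases before the start, shown in capitals as the example of the group.
Sgk1, chr10:21993640-21993889, + strand: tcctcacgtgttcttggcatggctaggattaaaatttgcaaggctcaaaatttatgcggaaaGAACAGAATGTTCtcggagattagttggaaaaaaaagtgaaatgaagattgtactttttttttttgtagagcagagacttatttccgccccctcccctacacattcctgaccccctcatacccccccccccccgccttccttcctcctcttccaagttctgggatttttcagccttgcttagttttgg
This motif is rare so close to starts. It was found in 52 of the 11438 promoters of tested genes (0.4546%), in 11 of the 590 called higher (1.864%) and in none of the 516 called lower. Among the 18 glucocorticoid-induced genes with a matched start, Sgk1 was the 1 that held it. Outside that list, the Mt1 promoter shown above also held 1 GRE match, which is in lower case there.

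Nr3c1, which encodes GR itself, fell from 3033, 2752 and 2820.2 to 1237, 1143 and 1219.8 normalised counts (LFC -1.26 ± 0.08, adjusted p = 1.43e-06), with no overlap between the groups. Water + Dex mice had 1622, 1405 and 1411, and all 3 ZnSO4 + Dex mice lay below them (LFC -0.30, adjusted p = 0.0516). Hsd11b2, the enzyme that inactivates natural glucocorticoids, rose from 352, 226 and 327 to 1098, 1275 and 1432 (LFC 2.07 ± 0.20, adjusted p = 3.17e-05), and the coregulator Nrip1 also rose (LFC 1.02 ± 0.15, adjusted p = 0.000653). The other 13 of 16 tested partners of GR were not called. Calls in this list were 12.5% higher and 6.25% lower, against 5.1% and 4.56% of all genes tested.

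Of 19 tested genes of glucose production and insulin signalling, 7 were called higher and 1 lower. These are 36.8% and 5.26% of the list, against 5.1% and 4.56% of all genes tested, so the single fall is near that share. Pck1 (ENSMUSG00000027513, chromosome 2, 173153048 to 173159273, + strand), the rate-limiting enzyme of gluconeogenesis, had 237, 213 and 107 normalised counts in water + PBS mice and 17905, 9720.0 and 19210.0 in ZnSO4 + Dex mice (LFC 6.39 ± 0.37, adjusted p = 9.01e-07). The rise passed every water + PBS mouse by more than an order of magnitude, and the ZnSO4 + Dex mice also lay above all water + Dex mice at 5885, 9449 and 7226, a difference short of the threshold (LFC 1.05 ± 0.29, adjusted p = 0.068). Slc37a4, the glucose-6-phosphate transporter, and Ppargc1a, a coactivator of gluconeogenesis, rose with LFCs of 1.03 and 1.28. Irs1 and Irs2, the adaptors of the insulin receptor, rose with LFCs of 1.65 and 1.10 (30.9% of the exonic bases of Irs1 overlap Gm9747 on the opposite strand), and the aminotransferase gene Got1 with 1.22. G6pc, the last enzyme of the pathway, overlapped between the groups and lost its call in 8 of the 12 fits that left out 1 library (adjusted p = 0.0467 with all, up to 0.185 without ZnSO4 + Dex replicate 1). Phlpp2, a phosphatase that turns off AKT, fell from 1446, 1426 and 1311 to 433, 316 and 501 (LFC -1.74 ± 0.15, adjusted p = 1.85e-05).

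Interferon-stimulated genes and genes of antigen presentation fell together. Over 6 lists (interferon-stimulated effectors, IRG and GBP GTPases, IRF and JAK-STAT genes, genes of necroptosis, pyroptosis and death receptors, and MHC class I and class II presentation), 122 genes were tested, 57 were called lower (46.7%, against 4.56% of all genes) and none was called higher. The LFC was below 0 in 116 of the 122. These lists were chosen with earlier results of these data known, so the share describes them and is not an independent test. Without water + PBS replicate 2, 45 of these genes were called lower, and without ZnSO4 + Dex replicate 2, 57.

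Of 33 tested interferon-stimulated effectors, 21 were called lower, with a median LFC of -0.88, against -0.19 in water + Dex and -0.34 in ZnSO4 + PBS mice. The count was 14 without water + PBS replicate 2, when 1 member was called higher. Ifit1bl1 (ENSMUSG00000079339, chromosome 19, 34592891 to 34601956, - strand), a member of the IFIT family that binds foreign RNA, had 4599, 3953 and 2697 normalised counts in water + PBS mice and 169, 177 and 189.8 in ZnSO4 + Dex mice (LFC -4.39 ± 0.19, adjusted p = 2.1e-07). Water + Dex mice had 1857, 1942 and 1561 and ZnSO4 + PBS mice 947, 791 and 779, so that the 4 groups formed 4 separate levels with the combined treatment lowest. Ifit1 fell from 799, 706 and 457 to 78.7, 91.1 and 76.8 (LFC -2.99 ± 0.23, adjusted p = 7.1e-06), again below both single treatments, which had 334, 375 and 349.5 with Dex and 454, 265 and 347 with zinc. Of the 31-base stretches of Ifit1bl1 and Ifit1, 19.3% and 10.8% also occur in other genes. Zbp1, a sensor of nucleic acids that starts necroptosis, was low in both zinc groups. It had 977, 980.5 and 590.0 in water + PBS, 789, 946 and 804 in water + Dex, 146, 167 and 194 in ZnSO4 + PBS and 131, 191 and 122 in ZnSO4 + Dex mice (LFC -2.52 ± 0.22, adjusted p = 1.71e-05). Herc6, which attaches ISG15 to proteins, fell with an LFC of -1.96, the poly(ADP-ribose) polymerase Parp14 with -1.96 and Isg15 with -1.80.

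The interferon-inducible GTPases of the IRG and GBP families, which attack the vacuoles of intracellular pathogens, were called lower in 9 of 15 (median LFC -1.22). Igtp (Irgm3) fell from 1039, 982 and 460.1 to 184, 199 and 94.9 normalised counts (LFC -2.37 ± 0.31, adjusted p = 0.00028) and Gbp5 from 221, 267 and 129 to 47.6, 78.6 and 46.9 (LFC -1.83 ± 0.30, adjusted p = 0.00116). Irgm2 fell with an LFC of -2.05, and Gbp6, of which 74.3% of 31-base stretches occur in other genes, with -2.48. Promoters of 4 interferon-stimulated genes are shown with the ISRE core, GAAANNGAAA, in capitals on either strand, to set genes of IFIT and GTPase type side by side.
Ifit1, chr19:34640639-34640870, + strand: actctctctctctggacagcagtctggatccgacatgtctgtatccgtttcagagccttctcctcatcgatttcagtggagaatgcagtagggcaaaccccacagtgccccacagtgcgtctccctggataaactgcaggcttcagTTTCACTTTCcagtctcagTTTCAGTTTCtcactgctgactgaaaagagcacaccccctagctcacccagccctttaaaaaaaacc
Ifit1bl1, chr19:34601969-34602218, - strand: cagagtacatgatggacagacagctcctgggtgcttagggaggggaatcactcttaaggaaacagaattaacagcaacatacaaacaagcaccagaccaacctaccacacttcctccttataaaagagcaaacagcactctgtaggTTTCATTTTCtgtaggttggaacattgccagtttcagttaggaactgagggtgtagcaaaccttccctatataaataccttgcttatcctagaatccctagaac
Gbp5, chr3:142496684-142496899, + strand: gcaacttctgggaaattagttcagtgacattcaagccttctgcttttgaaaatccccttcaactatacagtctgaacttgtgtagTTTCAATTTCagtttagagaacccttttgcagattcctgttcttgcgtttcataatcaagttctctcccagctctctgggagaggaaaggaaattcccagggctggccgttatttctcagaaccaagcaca
Igtp, chr11:58199306-58199555, + strand: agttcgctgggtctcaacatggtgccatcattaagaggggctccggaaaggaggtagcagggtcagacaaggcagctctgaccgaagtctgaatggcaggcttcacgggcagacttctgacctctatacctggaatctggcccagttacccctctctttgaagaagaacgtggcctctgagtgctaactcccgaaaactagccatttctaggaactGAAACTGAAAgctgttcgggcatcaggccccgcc
The core lay 104 and 85 bases before the start of Ifit1, 165 before that of Gbp5 and 34 before that of Igtp. For Ifit1bl1 it lay 104 bases before the annotated start shown and 23 before another annotated start, which is not shown. It was present in 3.917% of the promoters of tested genes, in 8.721% of those called lower and in 2.203% of those called higher. Of the interferon-stimulated effectors with a matched start 14 of 24 held it, as did 10 of 10 IRG and GBP genes and 3 of 13 genes of MHC class I presentation. The GAS motif, TTCNNNGAA, was present in 8.332% of the promoters of tested genes, in 11.24% of those called lower and in 9.322% of those called higher. It was in 6 of the 10 IRG and GBP promoters and in 7 of the 18 promoters of glucocorticoid-induced genes.

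Among 25 tested IRF and JAK-STAT genes, 8 were called lower and none higher. Irf1, a central activator of the programme, fell from 3178, 3455 and 2559 to 842, 867 and 919 normalised counts (LFC -1.81 ± 0.10, adjusted p = 8.12e-07), and Irf8 from 1718, 2050.1 and 1528 to 446, 532 and 493 (LFC -1.85 ± 0.14, adjusted p = 7.1e-06). The 3 ZnSO4 + Dex mice were the lowest of all 12 mice for each of these factors. Batf2, an interferon-induced partner of IRF factors, fell from 384, 428 and 397 to 51.8, 51.8 and 55.4 (LFC -2.92 ± 0.14, adjusted p = 2.64e-07), with 131, 141 and 123 in water + Dex and 162, 168 and 230.3 in ZnSO4 + PBS mice. The signal transducer Stat2 (LFC -0.95), the interferon regulator Irf7 (-0.92) and the kinase Jak3 (-1.28) were also called lower.

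Of 23 tested genes of necroptosis, pyroptosis and death receptors, 7 were called lower and none higher, Zbp1 among them. Ripk3 and Mlkl, the kinase and the membrane-breaking effector of necroptosis, had adjusted p-values of 0.00263 and 0.00384, but their LFCs of -0.71 and -0.75 stayed under the cut-off. Ripk3 had 554, 507 and 408 normalised counts in water + PBS and 268, 308 and 319.9 in ZnSO4 + Dex mice, and Mlkl had 211, 188 and 167 and 102, 130.4 and 102. Neither gene overlapped between these groups, a separation that held downwards for 18.9% of all genes tested. For both genes the ZnSO4 + Dex mice overlapped with ZnSO4 + PBS mice. Tnfsf10, the death ligand TRAIL, fell from 1067, 1098 and 886 to 233, 227 and 176 (LFC -2.26 ± 0.14, adjusted p = 1.61e-06), Casp4, the caspase of the non-canonical inflammasome, with an LFC of -1.36 and Gsdmd, which forms the pyroptotic pore, with -1.0. Tnf was low, with 53.4, 44.1 and 20.9 normalised counts in water + PBS and 1.04, 3.84 and 8.53 in ZnSO4 + Dex mice (LFC -3.12 ± 0.66, adjusted p = 0.00561).

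Genes of MHC class I presentation were called lower in 6 of 16 (median LFC -0.70, and 0.02 in water + Dex and -0.70 in ZnSO4 + PBS mice). They include the peptide transporter Tap1 (LFC -1.77 ± 0.22, adjusted p = 0.000186), the class I activator Nlrc5 (LFC -1.56 ± 0.24, adjusted p = 0.000865) and the immunoproteasome subunits Psmb9 (LFC -1.33) and Psmb8 (-1.27). Psmb8 had 1391, 1426 and 1065 normalised counts in water + PBS mice and 541, 626 and 443 in ZnSO4 + Dex mice, with ZnSO4 + PBS mice in the same low range at 556, 618 and 537. Genes of MHC class II presentation were called lower in 7 of 11 (median LFC -1.23, and -0.03 in water + Dex and -1.0 in ZnSO4 + PBS mice). H2-Aa, an alpha chain of the class II molecule, fell from 9418, 13837 and 10232 to 6079, 3429.5 and 4289.6 (LFC -1.28 ± 0.24, adjusted p = 0.00305), and Ciita, the master activator of these genes, from 636, 1287 and 745 to 108, 110.3 and 157 (LFC -2.83 ± 0.50, adjusted p = 0.0018). Of the class II genes, 5 were called lower without water + PBS replicate 2.

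T cell markers were called lower in 9 of 11, or 81.8% against 4.56% of all genes tested (7 without water + PBS replicate 2 and 7 without ZnSO4 + Dex replicate 2). Their median LFC was -1.43, and -0.08 in water + Dex and -0.82 in ZnSO4 + PBS mice. None was called lower than in ZnSO4 + PBS mice. Their summed normalised counts were 2634 to 3759 in water + PBS, 3179 to 5173 in water + Dex, 1187 to 1429 in ZnSO4 + PBS and 1322 to 1609 in ZnSO4 + Dex mice. Gzmb, a cytotoxic protease, fell from 748, 569.9 and 373 to 119, 205 and 123 (LFC -1.92 ± 0.32, adjusted p = 0.00131) and Cd3d, a chain of the T cell receptor complex, from 61.2, 127 and 72.1 to 33.1, 22.1 and 28.8 (LFC -1.63 ± 0.35, adjusted p = 0.00598). Of 10 B cell markers none was called, with a median LFC of -3.18 and sums of 407 to 8124 in water + PBS and 186 to 918 in ZnSO4 + Dex mice. Plasma cell markers were called lower in 3 of 7, of which Mzb1 had an LFC of -1.51 with 55.1% of its 31-base stretches found in other genes too. Macrophage and dendritic cell markers had none of 11 called (median LFC -0.07 and 2 higher without water + PBS replicate 1). The part of these cells in the falls of interferon and MHC genes was not tested.

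Of 24 tested epithelial defence genes that microbes induce, 12 were called lower and 2 higher (median LFC -1.0, and 0.06 in water + Dex and -1.33 in ZnSO4 + PBS mice). These are 50% and 8.33% of the list, against 4.56% and 5.1% of all genes tested. Duox2 and its maturation factor Duoxa2 build the enzyme that releases hydrogen peroxide at the mucosal surface. Duoxa2 had 1032, 1298 and 1073 normalised counts in water + PBS mice and 39.3, 19.2 and 62.9 in ZnSO4 + Dex mice (LFC -4.82 ± 0.30, adjusted p = 1.43e-06), and Duox2 fell from 6025, 6112 and 5157 to 518, 376 and 924 (LFC -3.25 ± 0.26, adjusted p = 1.03e-05). Both lay below every mouse of the other 3 groups. Duoxa2 shares 42.8% of its exonic bases with Duoxa1 on the opposite strand. The lectin Reg3g, which kills Gram-positive bacteria, fell from 154058, 109752 and 68832 to 19412, 7922 and 18005 (LFC -2.88 ± 0.38, adjusted p = 0.000288), and Reg3b (-1.58), the serum amyloid gene Saa1 (-4.19) and the nitric oxide synthase Nos2 (-2.63) fell too. For Saa1, 46.8% of 31-base stretches occur in other genes. Lcn2, which withholds iron from bacteria, went against the list, from 55.4, 49.1 and 25.6 to 842, 667 and 753 (LFC 4.12 ± 0.24, adjusted p = 8.12e-07), while ZnSO4 + PBS mice had 20.7, 18.3 and 32.4 and water + Dex mice 1169, 1373 and 1332. Reg4 was the other member called higher, with 1045, 568 and 947 in water + PBS and 2144, 3342 and 3079 in ZnSO4 + Dex mice (LFC 1.74 ± 0.29, adjusted p = 0.0013).

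Chemokine genes were called lower in 11 of 21 and higher in 1, from low levels. These are 52.4% and 4.76% of the list, against 4.56% and 5.1% of all genes tested, so the single rise is near that share. Ccl2, which recruits monocytes, had 31.1, 61.1 and 12.3 normalised counts in water + PBS mice and no read in any ZnSO4 + Dex library, so it was at least 11.6-fold lower (against 3 counts per library). Cxcl5, a neutrophil attractant, was likewise at 0 in all 3 ZnSO4 + Dex libraries and at 13.6, 33.1 and 16.1 in water + PBS mice, at least 6.98-fold lower. Cxcl10, an interferon-induced attractant of T cells, fell from 149, 119 and 62.6 to 4.14, 7.67 and 5.33 (LFC -4.23 ± 0.37, adjusted p = 1.71e-05), below all mice of the other groups. Ccl28, a mucosal chemokine, was the member that rose, from 1573, 1134 and 1433 to 2737, 2724 and 2295 (LFC 0.91 ± 0.13, adjusted p = 0.000467), but it was not called without water + PBS replicate 2. With only genes of at least 10 counts in every library, 4 chemokines were called lower.

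Among 26 tested genes of NF-kB and SOCS feedback, 9 were called lower and 1 higher (6 lower without water + PBS replicate 2). These are 34.6% and 3.85% of the list, against 4.56% and 5.1% of all genes tested, so the single rise is near that share. Socs3, which blocks cytokine receptors that signal through STAT3, fell from 962, 744 and 308 to 58, 69 and 75.7 (LFC -3.31 ± 0.41, adjusted p = 0.000191), Socs1 from 136, 138 and 90.1 to 12.4, 7.67 and 28.8 (LFC -2.90 ± 0.36, adjusted p = 0.000172) and the NF-kB cofactor Bcl3 from 516, 657 and 555 to 60, 86.3 and 109 (LFC -2.76 ± 0.23, adjusted p = 1.26e-05). The ZnSO4 + Dex mice overlapped with water + Dex mice for Socs1 and Bcl3 and lay below them for Socs3. The kinase Pim3 was the member that rose (LFC 0.91), with no member called higher without water + PBS replicate 3 and 2 without ZnSO4 + Dex replicate 2.

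**Figure D2:**
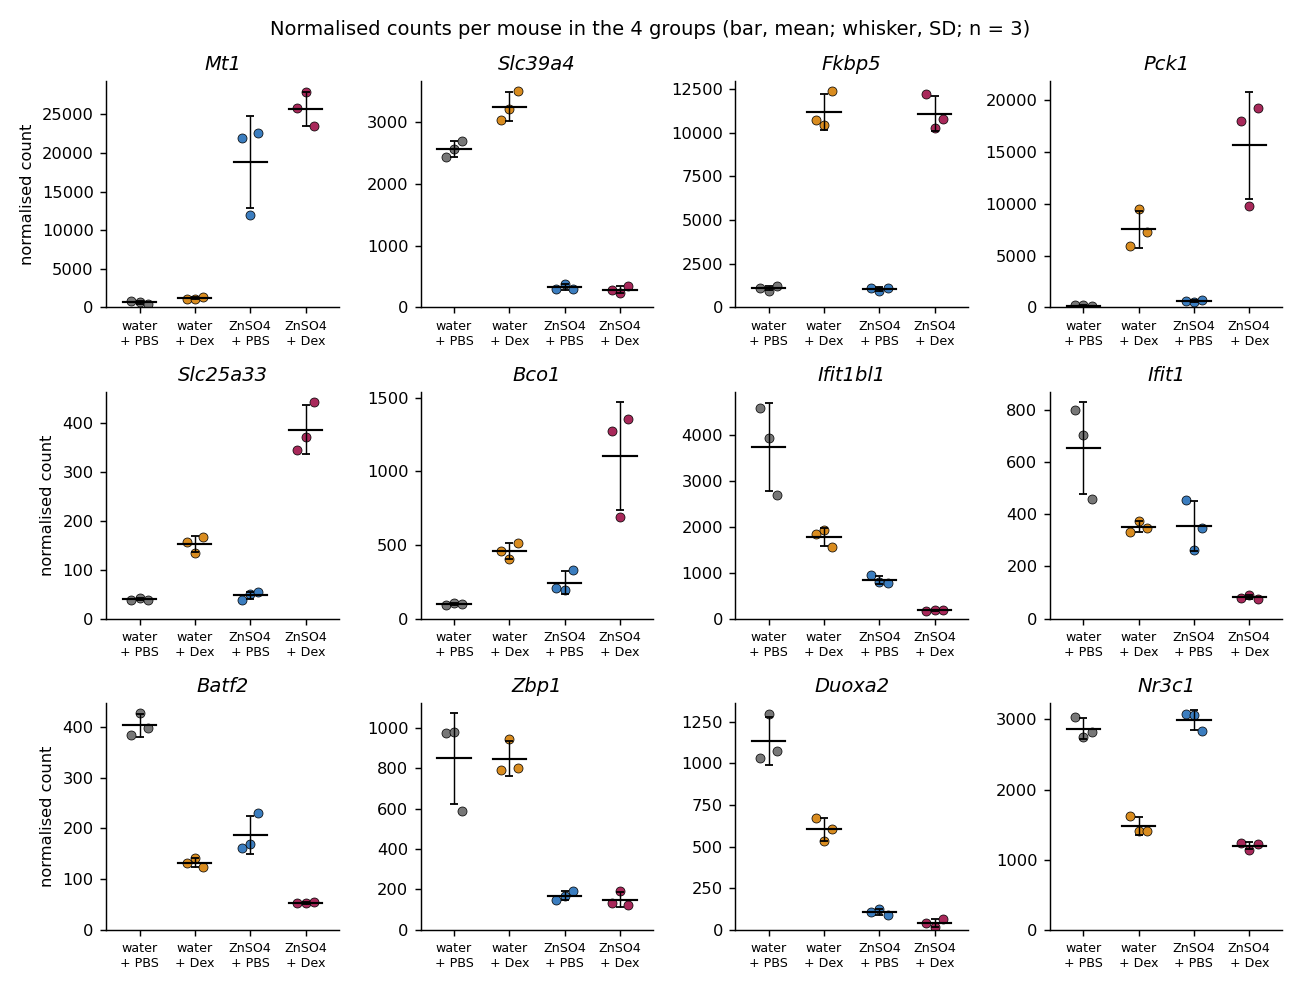
Normalised counts of 12 genes (y axis, from 0) in each mouse of the 4 groups (x axis); points are mice, bars the group mean and whiskers the SD of 3 mice. Mt1 is high and Slc39a4 and Zbp1 are low in both zinc groups, Fkbp5 is high and Nr3c1 low in both Dex groups, and for Slc25a33, Bco1, Ifit1bl1, Ifit1, Batf2 and Duoxa2 the 3 ZnSO4 + Dex mice lie beyond every mouse of the other groups. These last genes belong to those past both single treatments, a choice that largely requires their position.

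Drug-metabolising enzymes were called higher in 8 of 18 (median LFC 0.88, and 0.42 in water + Dex and 1.01 in ZnSO4 + PBS mice), but the count was 4 without water + PBS replicate 1 or without water + PBS replicate 2, and 10 without ZnSO4 + Dex replicate 2. The 8 are 44.4% of the list. Over all genes tested, 5.1% were called higher and 4.56% lower. Cyp2b10, a cytochrome P450 induced by glucocorticoids and by the receptor CAR, rose from 5.83, 4.01 and 10.4 to 208, 59.4 and 122 normalised counts (LFC 4.23 ± 0.62, adjusted p = 0.000575). Cyp3a11, the main drug-oxidising P450 of the gut, had 364, 549 and 503 in water + PBS mice and a wider spread of 4751, 1034 and 7116 in ZnSO4 + Dex mice (LFC 3.19 ± 0.79, adjusted p = 0.0131), and its adjusted p was 0.0506 without water + PBS replicate 1. Among 15 antioxidant genes, the subunits of the enzyme that starts glutathione synthesis rose, Gclc from 611, 665 and 674 to 1798, 1781 and 2567 (LFC 1.66 ± 0.14, adjusted p = 1.68e-05) and Gclm with an LFC of 1.0. Gpx2, the glutathione peroxidase of the gut epithelium, fell from 8625, 6595 and 5689 to 3444, 3749.7 and 3839.7 (LFC -0.92 ± 0.14, adjusted p = 0.000874), with an LFC of -0.74 without water + PBS replicate 1, while 2 antioxidant genes were called lower without water + PBS replicate 2 and 3 without water + PBS replicate 3. Of the 31-base stretches of Cyp2b10, 19.5% occur in other genes.

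Single members of the lists of lipid, bile acid and transport genes changed by large amounts. As counts, single calls in these lists are near the 5.1% called higher and 4.56% called lower of all genes tested. Angptl4, a secreted inhibitor of lipoprotein lipase, rose from 575, 393 and 145 to 5171, 4052 and 6207 (LFC 3.79 ± 0.49, adjusted p = 0.000224) and was the 1 member called higher of 18 genes of fat absorption, where the lipid droplet gene Plin2 was called lower (LFC -0.84, -0.71 without water + PBS replicate 1 and -0.77 without ZnSO4 + Dex replicate 1). Ppara, the fatty acid sensor, was called higher alone among 14 genes of fatty acid oxidation (LFC 1.85 ± 0.16, adjusted p = 1.59e-05), where 5 were called without water + PBS replicate 1 and 2 without water + PBS replicate 2. Slc10a2, the ileal bile acid transporter, rose from 10956, 10244 and 10680.5 to 25194, 13275 and 29207 (LFC 1.09 ± 0.23, adjusted p = 0.00512) and was the 1 gene called of 9 in bile acid signalling. Beside Sgk1, the chloride cotransporter Slc12a2 was called higher among 13 genes of sodium and chloride transport (LFC 0.99). The count of called genes was 3, and 5 without ZnSO4 + Dex replicate 2. The last of them, the sodium-proton exchanger Slc9a3, had 733, 457 and 269 in water + PBS and 1208, 634 and 1255 in ZnSO4 + Dex mice, which overlap, and was not called in 4 of the fits that left out a library (adjusted p = 0.0287 with all and up to 0.0962). Cldn14, a tight junction claudin, had no read in water + PBS mice and 54.9, 48.9 and 40.5 normalised counts in ZnSO4 + Dex mice, at least 16.0-fold higher, and no other of 17 tight junction genes was called (2 in all without ZnSO4 + Dex replicate 3). Of 17 brush border genes, the glucose transporter Slc2a2 rose from 40.8, 133 and 56 to 1105, 242 and 678 (LFC 3.14 ± 0.69, adjusted p = 0.00722), and the protease Mep1b fell from 21311, 19411 and 20529 to 10197, 5512 and 11647 (LFC -1.16 ± 0.21, adjusted p = 0.00237), as did the fructose transporter Slc2a5 (LFC -1.07, and -0.78 without water + PBS replicate 2). Without ZnSO4 + Dex replicate 2, 2 brush border genes were called higher.

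Regulators of the cell cycle split, with 3 of 13 G1 genes called higher and 3 lower (2 higher without water + PBS replicate 1 or without water + PBS replicate 2). The shares of all genes tested were 5.1% higher and 4.56% lower. The cyclin-dependent kinase inhibitors Cdkn1a and Cdkn1c rose (LFC 1.64 and 1.79), as did the kinase Cdk6 (0.84), whereas the inhibitor Cdkn2b fell from 1317, 1287 and 1400.2 to 220.5, 185 and 236 normalised counts (LFC -2.64 ± 0.11, adjusted p = 1.46e-07) and cyclin D1 (Ccnd1) fell with an LFC of -1.25. Genes on the opposite strand overlap 30.7% of the exonic bases of Cdkn1c and 23.4% of those of Ccnd1. Of 20 genes of S and M phase, Rrm2 alone was called (LFC 0.93 ± 0.16, adjusted p = 0.00156), and not without water + PBS replicate 3 or ZnSO4 + Dex replicate 1, where its LFC was 0.80 and 0.79. Tgfa, a ligand of the EGF receptor, rose from 406, 316 and 425 to 2329, 1468 and 1969 (LFC 2.33 ± 0.16, adjusted p = 2.97e-06), 1 of 3 genes called higher and 1 lower among 20 of that pathway (none lower without water + PBS replicate 2). Of 12 sphingosine and prostaglandin enzymes 3 were called higher and 1 lower (none lower without water + PBS replicate 2). Hpgd, which degrades prostaglandins, rose from 1515, 1627 and 1923 to 12578, 8759 and 10197 (LFC 2.64 ± 0.18, adjusted p = 2.45e-06), and Sphk1, which makes sphingosine-1-phosphate, from 18.5, 31 and 17.1 to 99.4, 94.9 and 104 (LFC 2.16 ± 0.21, adjusted p = 3.76e-05).

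Among 15 genes of arginine and polyamine metabolism, 2 were called higher and 1 lower. Over all genes tested, 5.1% were called higher and 4.56% lower, and 1 call in a list of 15 to 21 genes is near these shares. Glutamine synthetase (Glul) rose from 1464, 1363 and 1065 to 5463, 5778 and 4799 normalised counts (LFC 2.04 ± 0.14, adjusted p = 3.76e-06) and the arginase Arg2, overlapped on the opposite strand by Vti1b over 28.1% of its exonic bases, with an LFC of 1.94. The gene called lower was not called without water + PBS replicate 2. The integrated stress response had 3 of 19 genes called lower and 1 higher (1 lower without water + PBS replicate 2). Its glutathione-degrading member Chac1 fell from 69.9, 42.1 and 35.1 to 5.18, 8.63 and 7.46 (LFC -2.76 ± 0.39, adjusted p = 0.000452), and the lipoprotein receptor Vldlr rose (LFC 1.86). Immediate early genes had 3 of 21 called lower (1 without water + PBS replicate 2) and 1 higher (3 without ZnSO4 + Dex replicate 2), the growth inhibitor Btg2 (LFC 1.45 ± 0.17, adjusted p = 0.000141). Of 18 clock genes, Per1 and the repressor Cry2 were called higher (4 genes without ZnSO4 + Dex replicate 3) and Bhlhe41 lower (LFC 2.16 and -2.91 for the latter pair). The count called lower was 2 without water + PBS replicate 1, without water + PBS replicate 2 and without ZnSO4 + Dex replicate 1.

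**Figure D3:**
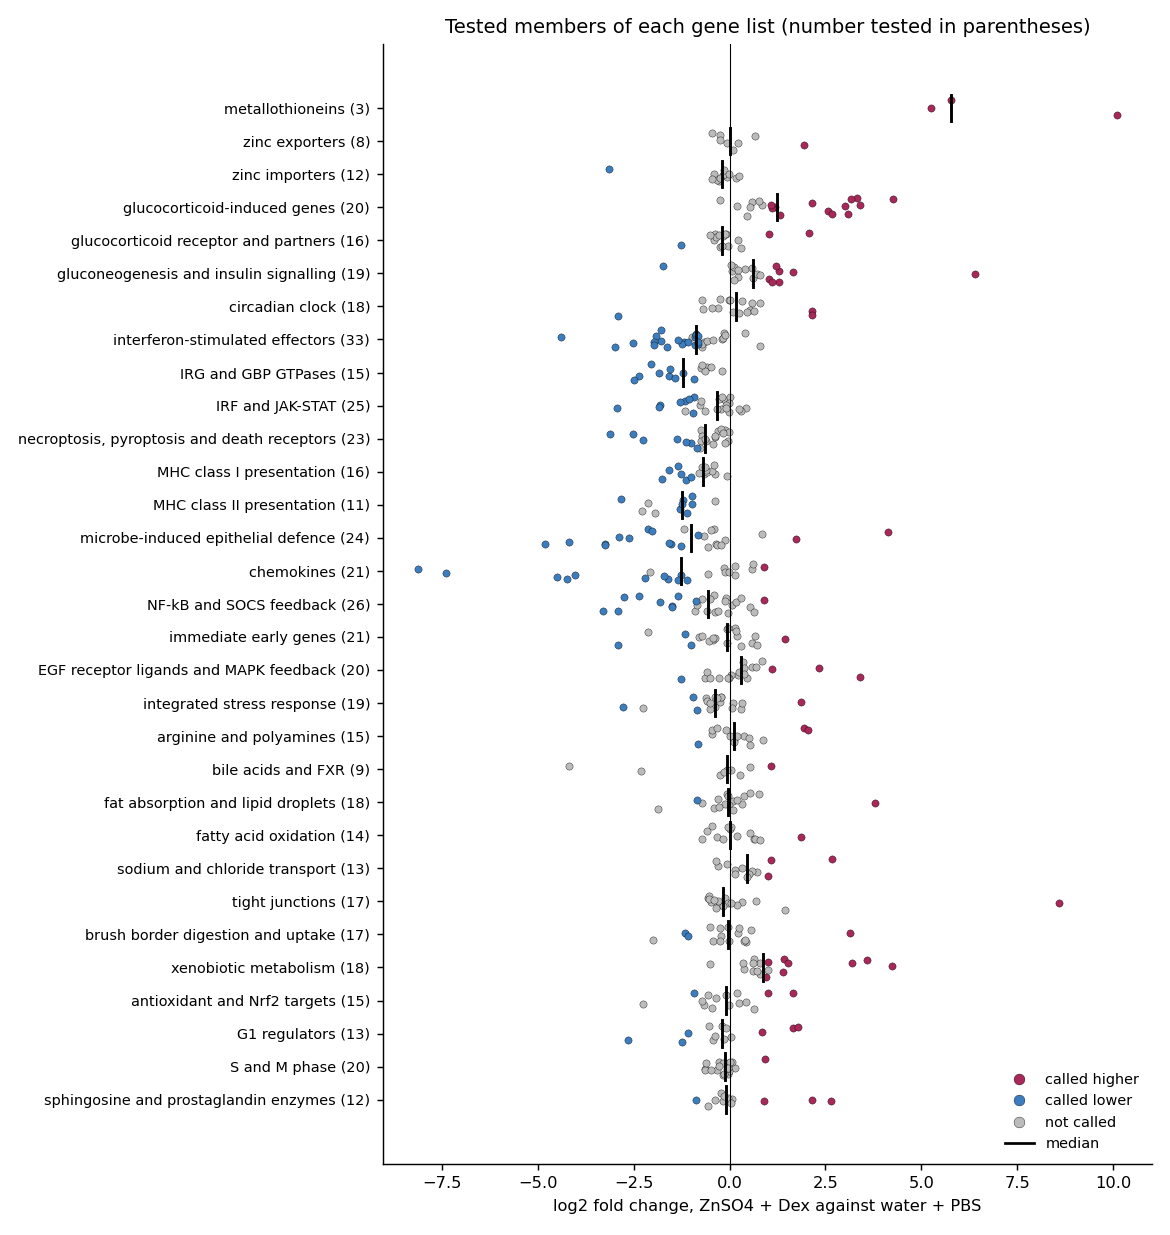
Each row is a gene list with its number of tested members, each point 1 member at its log2 fold change in ZnSO4 + Dex against water + PBS mice (x axis), coloured by its call, and the black bar the median; the vertical scatter within a row carries no value. Metallothioneins (median 5.77) and glucocorticoid-induced genes (median 1.25) lie to the right, and IRG and GBP GTPases (-1.22), MHC class II (-1.23), chemokines (-1.26) and microbe-induced defence (-1.0) to the left.

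Several of the largest rises were genes with next to no reads in water + PBS mice. The tissue kallikreins Klk1b3 and Klk1b26 had 1 read each in the 3 water + PBS libraries together and 137, 52.7 and 53.3 and 33.1, 17.3 and 20.3 normalised counts in ZnSO4 + Dex mice, ratios of 248 (counting interval 44.1 to 9831) and 72.2 (12.5 to 2891). Of the 31-base stretches of the kallikreins 41.1% and 28.3%, and of those of Acot5 29.7%, occur in other genes. The homeobox gene Gsc had a ratio of 195 (53.6 to 1617), the acyl-CoA thioesterase Acot5 of 164 (45.1 to 1362) and the potassium channel subunit Kcnv2 of 101 (27.7 to 844). Aire, a transcription regulator best known from the thymus, had 0, 4.01 and 0 normalised counts in water + PBS mice, 195, 82 and 246 in water + Dex and 175, 106 and 124 in ZnSO4 + Dex mice (LFC 6.57 ± 0.81, adjusted p = 0.000176). All these genes except the kallikreins overlapped between ZnSO4 + Dex and water + Dex mice.

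Among other large falls, Meltf, an iron-binding melanotransferrin, had 36.9, 92.1 and 99.6 normalised counts in water + PBS mice and 1 read in the ZnSO4 + Dex libraries together, a ratio of 225 (39.9 to 8912). Ubd, the ubiquitin-like FAT10, fell from 698, 782 and 314 to 33.1, 16.3 and 36.3 (LFC -4.39 ± 0.57, adjusted p = 0.000241), and Acta1, skeletal muscle actin, from 395, 1232 and 1581 to 92.1, 31.6 and 77.8 (LFC -4.00 ± 0.50, adjusted p = 0.000195). Water + Dex mice had 396, 940.3 and 564 for Ubd and 1813, 1696 and 1955 for Acta1, within or above the water + PBS range, and ZnSO4 + PBS mice were low for both. Acod1, which makes the antimicrobial itaconate, had 6.8, 64.1 and 16.1 in water + PBS mice and 1 read in ZnSO4 + Dex mice, a ratio of 84.1 (14.7 to 3361). The immunoglobulin segment Ighv1-69 fell from 665, 586 and 129 to 36.2, 24.9 and 8.53 (LFC -4.29 ± 0.63, adjusted p = 0.000563), with 66.9% of its 31-base stretches in other genes. Immunoglobulin variable segments made up 13 of the genes called lower. The number of such segments tested was not counted, so the 13 cannot be set against the 4.56% called lower of all genes tested.

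Markers of the labelled tissue were present in all 12 mice. None of 8 enterocyte, 8 Paneth, 8 goblet, 5 tuft and 6 stem cell markers was called, and their median LFCs were -0.24, 0.15, 0.52, 0.33 and 0.00041. Goblet cell sums were 149469 to 151819 in water + PBS and 192807 to 227716 in ZnSO4 + Dex mice. Distal enterocyte markers had 1 of 7 called, Slc10a2 (2 without ZnSO4 + Dex replicate 2), and proximal enterocyte markers had 3 of 7 called higher and 1 lower (5 higher without ZnSO4 + Dex replicate 2). The alcohol dehydrogenase Adh6a rose from 239.9, 217 and 238 to 2684, 1884 and 1774 (LFC 3.19 ± 0.26, adjusted p = 1.14e-05), and Gata4, the factor that marks proximal gut, had 14.6, 62.1 and 18 and 3.11, 1.92 and 2.13 (LFC -3.66 ± 0.84, adjusted p = 0.00894). Markers of enteric neurons and glia summed to 394 to 426 in water + PBS and 803 to 845 in ZnSO4 + Dex mice, with 1 of 7 called, the receptor gene Ret (LFC 1.51 ± 0.18, adjusted p = 0.000141). Enteroendocrine markers had 2 of 9 called higher, the hormone genes Pyy (LFC 0.99) and Gcg (0.84), with 1 to 4 called in fits without 1 library. None of 7 smooth muscle, 6 fibroblast, 5 mesothelium, 5 adipocyte and 5 erythrocyte markers was called. Smooth muscle sums were still apart, at 17022 to 21969 in water + PBS and 24382.5 to 34809 in ZnSO4 + Dex mice. So were the sums of tuft (414 to 479 and 513 to 608), enteroendocrine (3641 to 3973 and 5377 to 6351) and proximal enterocyte markers (14484 to 15588 and 15998 to 31109). Plasma cell (29826 to 31265 and 18839 to 25445) and neutrophil sums (50.3 to 102 and 34.1 to 43.5) were apart downwards. Of all single genes tested, 18.0% were apart upwards and 18.9% downwards, and 5.1% were called higher and 4.56% lower. Fibroblast, mesothelium, adipocyte, erythrocyte, enterocyte, Paneth and stem cell sums overlapped. Neutrophil markers had 2 of 3 called lower, none of them without water + PBS replicate 2 or without ZnSO4 + Dex replicate 2. Pancreas markers summed to at most 2.07 normalised counts in any mouse.

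**Figure D4:**
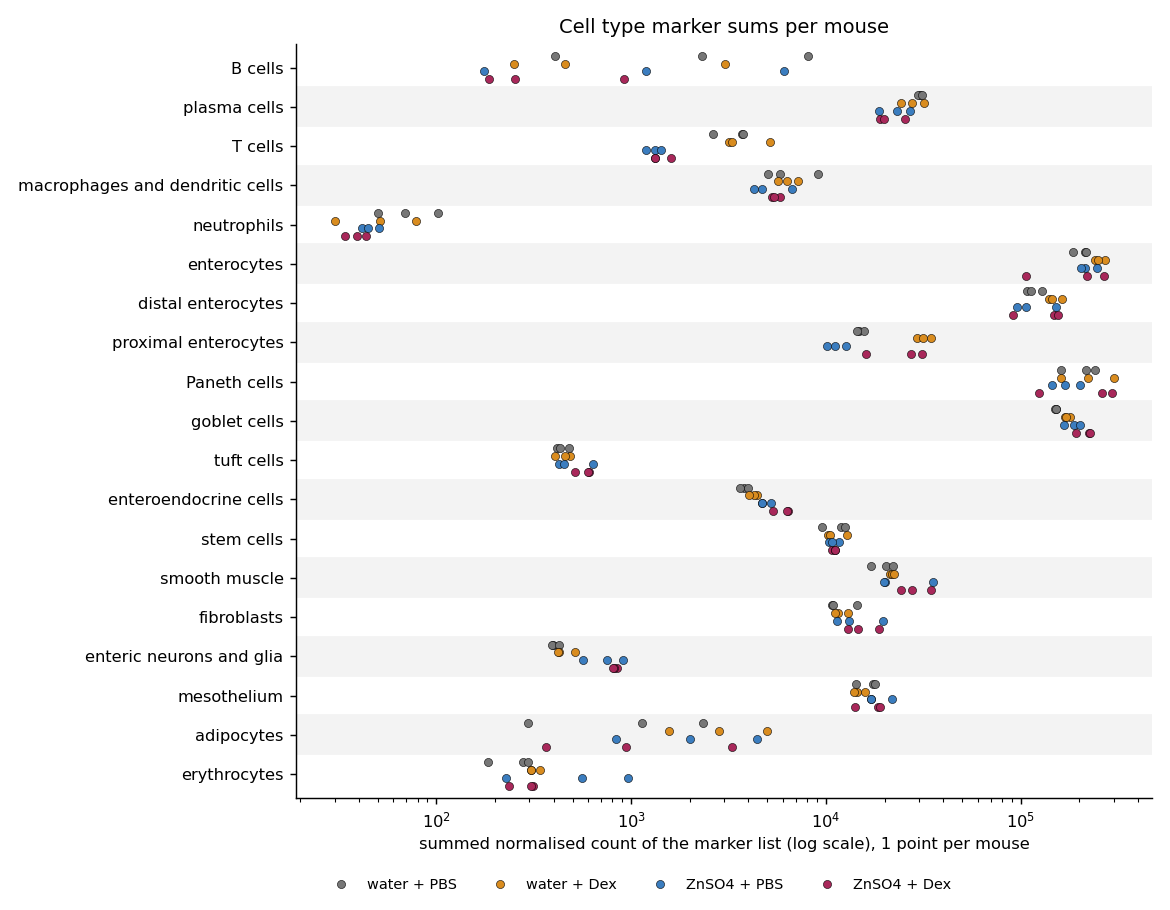
Summed normalised counts of each cell type marker list (x axis, log scale) for each mouse; colours are the 4 groups. T cell sums are lower in both zinc groups, neuron and glia sums are higher in both, B cell sums spread over more than an order of magnitude in 3 of the 4 groups, and ZnSO4 + Dex replicate 2 is the lowest point for enterocytes.

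To see where the combined treatment went beyond either treatment, ZnSO4 + Dex mice were tested directly against each single treatment. Against water + Dex mice, 111 genes were called higher (0.696% of those tested) and 192 lower (1.2%), and against ZnSO4 + PBS mice 543 higher (3.41%) and 383 lower (2.4%). The count of 111 was 65 without water + Dex replicate 1 and 72 and 76 without water + Dex replicates 2 and 3. No glucocorticoid-induced gene was called against water + Dex mice, while 15 of 20 were called higher than in ZnSO4 + PBS mice. Against water + Dex mice, 14 of 33 interferon-stimulated effectors, 9 of 16 MHC class I and 6 of 11 MHC class II genes were called lower, and against ZnSO4 + PBS mice 12, 0 and 1. A single effector (1 of 33) was called higher than in ZnSO4 + PBS mice.

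Called against water + PBS and past both single treatments in the same direction (adjusted p under 0.05 against each) were 54 genes upwards (0.339% of those tested) and 80 downwards (0.502%). These counts depend on single libraries. The upward count was 15, 18 and 29 without water + Dex replicates 1, 2 and 3 and 22 without ZnSO4 + Dex replicate 1, and the downward count was 49 without water + Dex replicate 2 and 132 without ZnSO4 + Dex replicate 3. The median LFC of the 54 was 1.25 in ZnSO4 + Dex, 0.55 in water + Dex and 0.40 in ZnSO4 + PBS mice, and that of the 80 was -1.36, -0.56 and -0.45, all against the same water + PBS mice. That ZnSO4 + Dex mice lie farthest out in these genes follows from the rule that chose them.

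Interferon-stimulated effectors supplied 11 of the 80 genes below both single treatments, IRF and JAK-STAT genes 4 (Batf2, Irf1, Irf7 and Stat2), genes of necroptosis, pyroptosis and death receptors 3 (Casp4, Gsdmd and Tnfsf10) and epithelial defence genes 2 (Duox2 and Duoxa2), while the IRG and GBP, MHC class I and MHC class II lists supplied none. Ifit1bl2 fell from 1696, 2100.2 and 1578 to 228, 49.9 and 263 normalised counts, with 828, 886 and 810.1 in water + Dex and 1285, 1064 and 975 in ZnSO4 + PBS mice (against these, LFC -2.23 ± 0.40, adjusted p = 0.0101 and LFC -2.63 ± 0.40, adjusted p = 0.00107). Apol10a, an apolipoprotein L, fell from 3192, 2891 and 2862 to 503, 487 and 357 (adjusted p = 0.00164 against water + Dex and 0.000305 against ZnSO4 + PBS). Barx2, a homeobox gene, had 311, 398 and 342 in water + PBS, 127, 136 and 141 in water + Dex, 114, 98.7 and 102 in ZnSO4 + PBS and 33.1, 48.9 and 34.1 in ZnSO4 + Dex mice (adjusted p = 0.000183 and 0.000142). For Apol10a and Barx2, all 3 ZnSO4 + Dex mice lay below every other mouse. Of the 31-base stretches of Apol10a, 28.2% occur in other genes. Xcl1, a chemokine of cytotoxic lymphocytes, was low throughout, from 19.4, 19 and 14.2 in water + PBS to 2.07, 2.88 and 1.07 in ZnSO4 + Dex mice, and the adaptor Pik3ap1 fell with an LFC of -2.25.

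Above both single treatments, Slc25a33, a mitochondrial pyrimidine nucleotide carrier, had 37.9, 42.1 and 38.9 normalised counts in water + PBS, 156, 135 and 166 in water + Dex, 38.6, 50.2 and 53.6 in ZnSO4 + PBS and 345, 372 and 443 in ZnSO4 + Dex mice (LFC 1.34 ± 0.14, adjusted p = 0.000694 against water + Dex). The ZnSO4 + PBS mice lay near the water + PBS mice, and 14.9% of its exonic bases overlap Gm13068 on the opposite strand. Bco1, which cleaves beta-carotene to retinal, rose in both single treatments and most in the combined one, with 95.2, 105 and 98.7, 459, 404 and 511, 206, 196 and 333 and 1272, 687 and 1357 in the same order (LFC 1.27 ± 0.25, adjusted p = 0.0141). Sphk1 had 42.3, 42.1 and 50.7 with Dex and 30.1, 28.3 and 24 with zinc, below its 99.4, 94.9 and 104 with both (LFC 1.14 ± 0.20, adjusted p = 0.00935 against water + Dex). Plxnb1, a semaphorin receptor, and Klrb1, a lectin-like receptor of lymphocytes, had LFCs of 1.03 and 1.81 against water + Dex mice. Ano3, Minar1, Klk1b3 and Klk1b26 were the low genes of this group, with 17.3 to 33.1 normalised counts for Klk1b26 in ZnSO4 + Dex mice. Gclc, Tgfa, Slc37a4 and Cdk6 also belong to the 54.

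**Figure D5:**
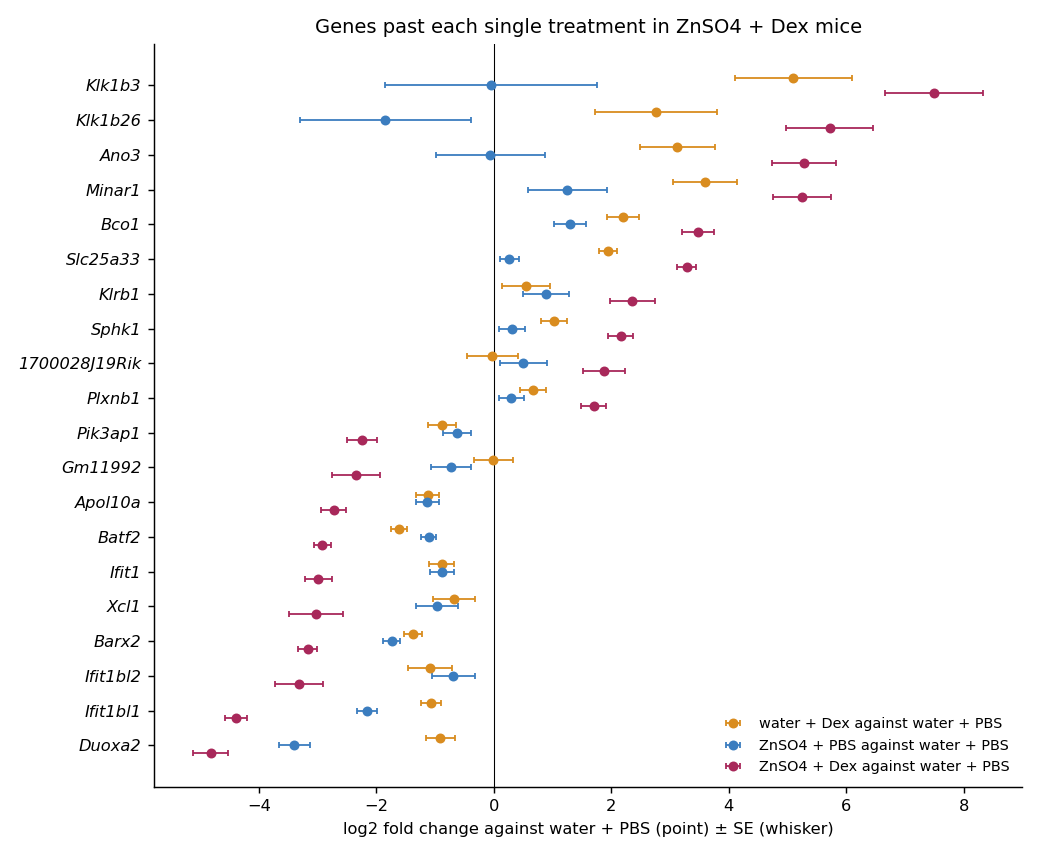
Log2 fold changes against water + PBS mice (x axis; whiskers, SE) in water + Dex, ZnSO4 + PBS and ZnSO4 + Dex mice for the 10 genes above and the 10 below both single treatments whose smallest difference, among those against the 3 other groups, was largest. The ZnSO4 + Dex point is farthest from 0 for each gene, which the choice of these genes requires.

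Whether the combined change departed from the sum of the single changes on the log2 scale was tested as an interaction. No gene passed (lowest adjusted p = 0.952 by edgeR, 794 genes with an unadjusted p under 0.05), and DESeq2 called 6 (580 unadjusted). Ifit1bl1 was among the 6. Its LFC was -1.07 in water + Dex, -2.16 in ZnSO4 + PBS and -4.39 in ZnSO4 + Dex mice, which leaves -1.16 ± 0.24 beyond the sum (edgeR adjusted p = 0.952, DESeq2 adjusted p = 0.0278). The others were Tram2, a translocation-associated membrane protein, with -0.97 and an adjusted p of 0.0278 by DESeq2, and 2410002F23Rik, the long RNA Gm26917 and the immunoglobulin segments Igkv6-20 and Igkv9-124, with 1.12 to 4.65. For Slc25a33 the departure was 1.08 ± 0.21 and for Ifit1 -1.22 ± 0.31 (adjusted p = 0.952 by edgeR for both). For Mt1 and Fkbp5 it was -0.37 ± 0.34 and 0.05 ± 0.17.

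Next to the cut-off of 0.8, Rap1gap2, which restrains the GTPase Rap1, and Peak1, a pseudokinase, had LFCs of 0.80 and -0.80, and the lipid droplet coat gene Plin3 had -0.80. Rap1gap2 fell just short of the cut-off and the others just past it. Rap1gap2 had 974, 993 and 971 normalised counts in water + PBS and 1807, 1385 and 1922 in ZnSO4 + Dex mice, and such genes fall on either side of the cut-off with small changes of the fit.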

How the data were processed

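RNA was sequenced from the ileum of 12 mice (TruSeq stranded libraries, single-end reads). The authors deposited a table of raw counts per gene and library. Per the paper's methods and the submitters' processing notes, reads were trimmed with Trimmomatic, aligned to mm10 with HISAT2 2.0.4 and counted with featureCounts without multimapping reads, so genes with near-identical copies are undercounted. The annotation release and the strand setting are not given in the sources used here. The labels and the paper give different volumes for the injection.

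Library totals were 10760132 to 11827487 counts. Of 54838 genes, 15938 passed filterByExpr (minimum count 10). Counts were scaled by TMM factors and fitted with edgeR 4.0.16 (R 4.3.3) in 1 quasi-likelihood model of 4 group means over the 12 libraries, and the 3 differences and the interaction were tested as contrasts, with adjusted p-values by Benjamini-Hochberg. The thresholds for a call were 0.05 for the adjusted p and 0.8 for the size of the LFC, as in the study, and SE is the LFC divided by the square root of F. The fit was tested on simulated data. Column names were matched to samples by their initials and numbers. The labels do not say whether mice shared a cage or a batch, so p-values measure the spread between these mice. For genes with at most 3 counts in a group, fold bounds use 3 counts per library, and ratios have exact 95% intervals that cover counting error only. Motifs were searched in RefSeq promoters (GRCm38.p6), and gene positions are from GENCODE M21 (GRCm38, the build mm10).

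Named genes are the 15 largest rises and falls, up to 4 called members of each gene list, genes the study names, up to 10 genes past both single treatments in each direction, and genes nearest the cut-off. The rule names 164 genes, of which the text describes 114. The other 50 were left out after their values were seen, and they more often lost their call without 1 library (at least 23 of 35 called genes, against 10 of 111 called genes described). Further genes (Bcl6, Ccl28, Cdk6, Duox2, Got1, Gsdmd, Irf7, Irs2, Isg15, Klf15, Klf9, Lpin1, Nos2, Parp14, Pdk4, Pim3, Ppargc1a, Reg3b, Reg3g, Reg4, Slc37a4, Stat2 and Zbtb16, and the genes DESeq2 called for the interaction other than Ifit1bl1) were named after their values were seen. The comparison, the gene lists and the tests were chosen with earlier results of these data known. DESeq2 1.42.0, other scalings, filters and cut-offs, a replicate block and leaving out each library were tried as alternatives.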

Additional observations from a re-analysis of the deposited data

How the results depend on the processing

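The 7 counts of called genes were recomputed under other settings. Against water + PBS, DESeq2 called 781 genes higher and 786 lower (756 and 697 of them shared with edgeR), and other scalings and filters gave 659 to 872 higher and 597 to 853 lower. Without a cut-off on the LFC, the counts higher and lower were 1828 and 1891 against water + PBS, 291 and 405 against water + Dex and 1060 and 1129 against ZnSO4 + PBS. Testing against a fold of at least the cut-off (glmTreat) gave 259 and 178, 13 and 25, and 198 and 77. At an LFC above 1, 239 genes were lower than in ZnSO4 + PBS mice. DESeq2 called 6 genes for the interaction, and edgeR none. Leaving out 1 library gave 712 to 819 higher and 558 to 797 lower against water + PBS, 65 to 114 and 130 to 230 against water + Dex, 441 to 550 and 321 to 444 against ZnSO4 + PBS, and 0 for the interaction. The cause of these shifts was not tested.

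Among ZnSO4 + Dex and water + PBS mice, those with the same number did not deviate together (residual correlations of -0.071 to 0.091 over the 3 pairs). Over all groups, 18 same-number pairs had -0.359 to 0.457 (median -0.056) and 36 other pairs -0.469 to 0.442 (median 0.023). The highest, 0.457, was that of water + PBS replicate 2 with ZnSO4 + PBS replicate 2. With the number as a replicate block, 777 and 714 genes were called against water + PBS, 95 and 189 against water + Dex, 521 and 368 against ZnSO4 + PBS and 0 for the interaction.

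The genes past both single treatments were recomputed under settings chosen after seeing the data. There were 35 to 76 above and 49 to 125 below under DESeq2, the other scalings and filters, the replicate block and the fit of fewer libraries, and 0 and 3 with glmTreat. Genes called lower in the 6 interferon and antigen presentation lists numbered 45 to 64 when 1 library was left out and 28 with glmTreat.

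The genes described are a selection by how well their calls held. Of 146 called genes that the rule names, at least 33 lost the call in at least 1 fit without 1 library, and 23 of these are not described (Cd8b1, Csf3r, Cxcl1, Cyp2c55, Derl3, Dusp4, Egf, Egr3, Gstm3, Ighv1-15, Nr4a3, Pdk2, Phgdh, Plb1, Psat1, Ptges, Rbp2, Rtl5, S100a9, Srm, Tnfrsf17, Tnip3 and Trac). The direction turned for 6 genes that were not called and are not described. Without 1 library, their LFCs ran from -0.42 to 0.86 for Fabp4, -0.52 to 0.10 for Anpep, -0.0091 to 0.32 for Hbb-bs, -0.16 to 0.47 for Lyz1, -0.043 to 0.18 for Krt19 and -0.15 to 0.073 for Olfm4, which was 0.0067 with upper-quartile factors.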
